A study of Mus musculus with 4 samples.

Results

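Genes of ciliary transport were followed in RNA-seq data from developing mouse retina. The set holds 35 of the 21830 genes analyzed. Its rule is by name, 35 listed symbols together with every symbol made of Ift or Bbs and a number. The tables held 34 of the listed symbols, and the numbered pattern added Ift27. Ift43 was not found under that name. A line named 1700019E19Rik, which RefSeq gives as an older symbol of Ift43, is reported separately and was not counted as a member. By role the members fall into 10 IFT-B subunits, 2 IFT-A subunits, 4 motor genes, 7 BBSome subunits, 2 chaperonin-like genes of BBSome assembly, 3 small GTPases and 7 genes of the transition zone.

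RNA came from retinas of mice labelled as strain FVB/N at postnatal day 1 (P1) and postnatal day 4 (P4). The study's methods name ICR mice as well as the transgenic line, and the sources used here do not settle which background these retinas had. Per the study's methods the mice carried a transgene in which a 2.5-kb promoter of Hes1 drives destabilized EGFP, and trypsinized retinal cells were separated on a cell sorter. EGFP-positive cells are called pHes1_EPCs and EGFP-negative cells pHes1_ENCs. All 4 groups carried the transgene and received no treatment, and each is a single library. There is no replicate, so no difference below was tested, and each one describes a pair of libraries. How many animals were pooled in a library is not given in the sources used here. The sort follows the activity of a promoter fragment and not a cell type, so pHes1_ENCs are a mixture of all retinal cells without EGFP.

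The cilium is an antenna built on a basal body. Its parts are carried along the axoneme by intraflagellar transport (IFT), in which IFT-B particles with kinesin move towards the tip and IFT-A particles with dynein move back. The BBSome is a coat of several subunits that rides on these trains and takes membrane proteins out of the cilium, and the transition zone at the base acts as a gate. In a photoreceptor the transition zone is the connecting cilium, and the outer segment is a modified cilium. Loss of many of these genes in humans causes ciliopathies, often with retinal degeneration. Dividing progenitors and Müller glia carry a primary cilium that progenitors take down before mitosis.

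Genes of ciliary transport in animals are often controlled by RFX factors through a promoter element called the X-box. The RefSeq promoter table for GRCm38.p6, with 250 bases before and 50 bases after each annotated start, was searched on both strands for GTNNCCNNNGNAAC, where N is any base. The reverse complement of this motif is GTTNCNNNGGNNAC. A promoter was available for 31 of the 35 members, and 7 of them (22.6%) held a match. The share was 2.49% among all 27025 genes searched. Of 117 genes in the other cilium lists used further below, 97 had a promoter, and 14 of these (14.4%) held a match. Matches were thus not particular to the members. Those of the members lay in 3 of 7 BBSome subunits, 3 of 6 transition zone genes and 1 of 8 IFT-B subunits. None lay in the chaperonin-like, GTPase, motor or IFT-A genes. The 7 windows are printed because they show which members share this element. They run 5′ to 3′ on the strand of the gene, with the matched letters in capitals.
Bbs1: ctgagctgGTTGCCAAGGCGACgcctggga
Bbs4: ctcagctgGTCGCCCGGGAAACggtcggct
Bbs7: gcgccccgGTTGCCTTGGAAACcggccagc
Ahi1: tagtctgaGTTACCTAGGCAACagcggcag
Mks1: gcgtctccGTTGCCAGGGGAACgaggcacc
Nphp4: cggtgcccGTCTCCTAGGTAACgcgccagc
Ift57: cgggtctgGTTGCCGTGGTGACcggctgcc

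In GRCm38.p6 the windows lie at chr19:4906605-4906634 on the minus strand for Bbs1, at chr9:59353464-59353493 on the minus strand for Bbs4 and at chr3:36613489-36613518 on the minus strand for Bbs7. Those of the transition zone genes are at chr10:20952560-20952589 for Ahi1, at chr11:87853183-87853212 for Mks1 and at chr4:152477903-152477932 for Nphp4, all on the plus strand. That of Ift57 is at chr16:49699199-49699228, also on the plus strand. In Bbs1 the match started 2 bases and in Bbs4 24 bases after the annotated start, whereas that of Bbs7 began 121 bases before it. A match is a description of these letters and not a measured binding site.

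**Figure D1:**
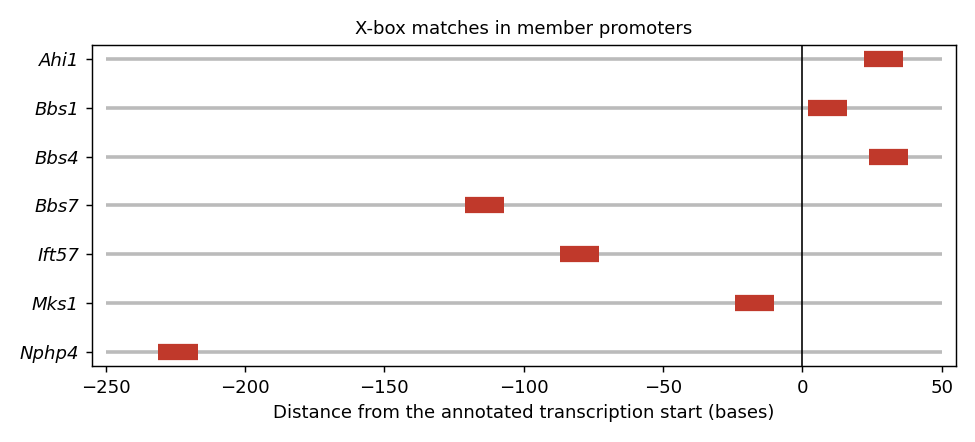
Position of the X-box match in the 7 member promoters that hold one. The horizontal axis is the distance from the annotated transcription start in bases, grey lines are the 300 bases searched and red blocks are the matches. Ahi1, Bbs1 and Bbs4 have the match after the start and the other 4 genes before it.

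Expression levels are given as FPKM, fragments per kilobase of transcript scaled to the mapped fragments of the library, which are divided by length and can be compared between genes. The difference of a gene is taken on the scale log2(FPKM + 1), pHes1_EPCs less pHes1_ENCs, and a difference beyond 1 or -1 is called over 2-fold. Ranges of ratios come from the 95% intervals that Cufflinks gives for each FPKM, which cover the counting of fragments and not variation between animals or sorts. For the members the half-width of that interval had a median of 7.32% to 9.69% of the FPKM, depending on the library. Genes had to reach an FPKM of 1 in 1 or more libraries, and 34 of the 35 members passed. The exception was Kif17, a kinesin of photoreceptors and neurons, at 0.120 and 0.0996 FPKM in the pHes1_ENCs and pHes1_EPCs of P1 and at 0.123 and 0.207 at P4. The other 34 reached an FPKM of 1 in every library. Across the 4 libraries the FPKM summed to 277425 to 372002, and the value of 1 read differed by at most 1.07 times. Of 140 member values, 17 lie outside their own interval, in 6 members. These are Ift20, Ift27 and Arl3 in all 4 libraries, Arl6 in 3, and Bbs4 and Bbs5 in P4 pHes1_ENCs.

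**Figure D2:**
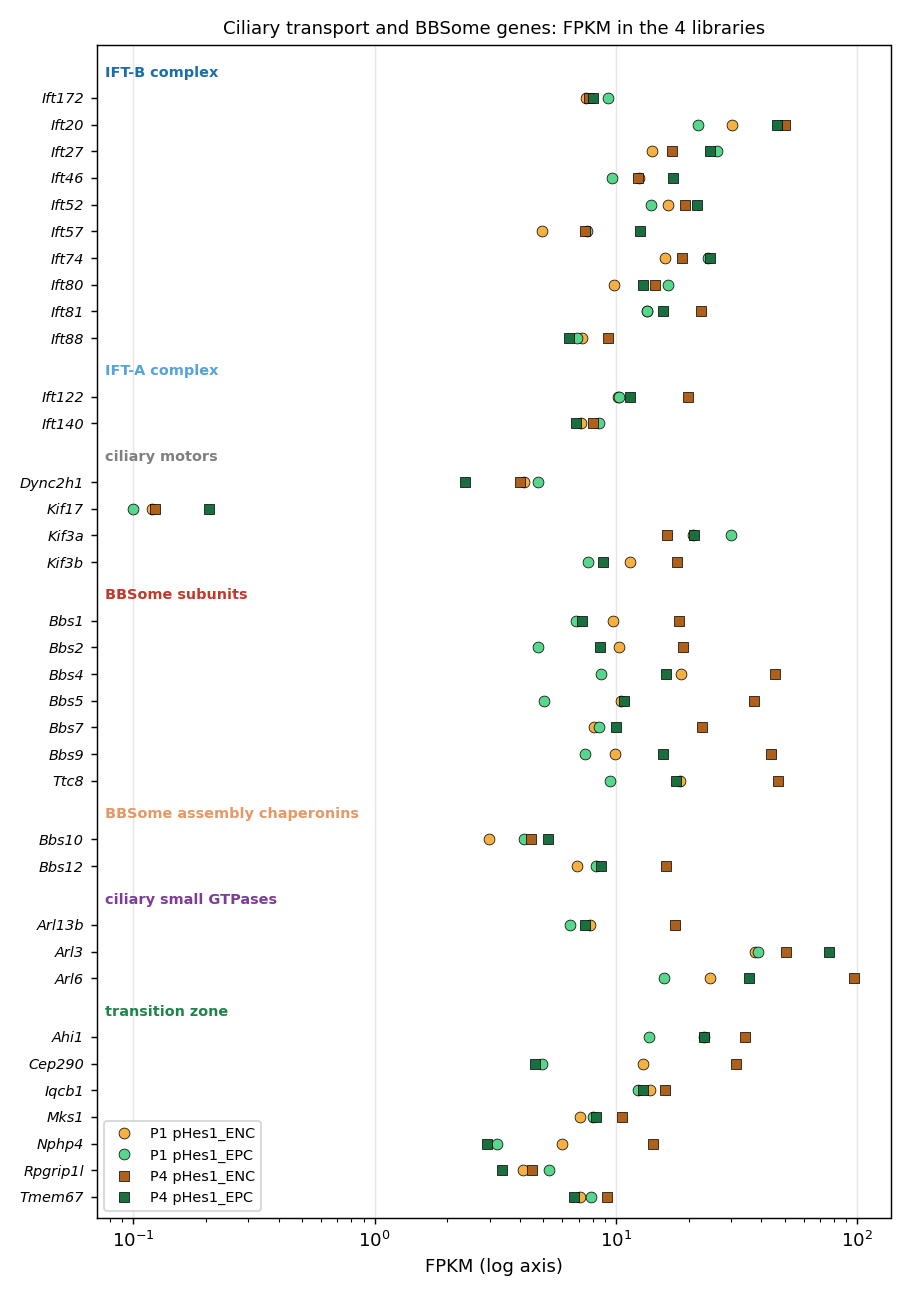
FPKM of the 35 members in the 4 libraries, grouped by role, on a log axis. Each point is 1 library, circles are P1 and squares are P4, orange and brown are pHes1_ENCs and green shades are pHes1_EPCs. Each of the 7 BBSome subunits is highest in P4 pHes1_ENCs, and Kif17 is below 1 FPKM throughout.

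Of the 7 BBSome subunits in the set, 6 were lower in pHes1_EPCs at P1 and all 7 at P4. At that age all 7 were over 2-fold lower in pHes1_EPCs than in pHes1_ENCs, with log2 differences of -1.70 to -1.06 and a median of -1.35. At P1 their median was -0.89, and 1 of 7 was over 2-fold lower. This P1 count depended on the setting, since it was 3 of 7 with a pseudocount of 0.1, as a plain ratio or with FPKM rescaled to the same total, and 2 of 7 after quantile normalization. Over all 12941 genes past the filter 9.15% were over 2-fold lower at P4 and 11.5% at P1, and the median difference was 0.15 and 0.02. The Cufflinks intervals of the fractions were apart, with pHes1_EPCs lower, for 6 of 7 subunits at P1 and 7 of 7 at P4, beside 32.7% and 29.2% of all genes. Bbip1 (BBS18), a BBSome subunit outside the set, went the other way. It had 15.4, 17.7, 20.6 and 29.1 FPKM in P1 pHes1_ENCs, P1 pHes1_EPCs, P4 pHes1_ENCs and P4 pHes1_EPCs, differences of 0.19 and 0.48.

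Bbs5, whose product binds phosphoinositide lipids, had the largest difference of the complex at P4. Its FPKM was 10.5 in P1 pHes1_ENCs, 5.01 in P1 pHes1_EPCs, 37.3 in P4 pHes1_ENCs and 10.8 in P4 pHes1_EPCs. On the log2 scale the fractions differed by -0.93 at P1 and by -1.70 at P4, where pHes1_EPCs had 0.290 times the level of pHes1_ENCs (range 0.237 to 0.361). P4 pHes1_ENCs thus stood above the other 3 libraries, and the pHes1_EPC library of P4 was at the level of the pHes1_ENC library of P1. The gene lies on chromosome 2 in NCBI37/mm9, at 69485312 to 69505626 on the plus strand.

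Bbs4 encodes a subunit that also sits at centriolar satellites, and Ttc8 (BBS8) a related subunit with tetratricopeptide repeats. Bbs4 measured 18.6, 8.70, 45.7 and 16.1 FPKM in the same order of libraries, a log2 difference of -1.01 at P1 and -1.45 at P4. Ttc8 measured 18.4, 9.48, 46.8 and 17.8 FPKM, with differences of -0.89 and -1.35. In both genes the pHes1_EPC library was the lower one at each age. Their P4 ratios were 0.352 (range 0.311 to 0.408) for Bbs4 and 0.379 (range 0.333 to 0.427) for Ttc8. Bbs4 is at 59169773 to 59201315 on the minus strand of chromosome 9, and Ttc8 at 100158784 to 100221448 on the plus strand of chromosome 12.

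Bbs2, Bbs7 and Bbs9 encode the core on which the BBSome is assembled. Bbs9 had 9.94 and 7.41 FPKM in pHes1_ENCs and pHes1_EPCs of P1, and 43.7 and 15.6 in those of P4, a ratio at P4 of 0.358 (range 0.320 to 0.396). Bbs2 had 10.3 and 4.75 FPKM at P1 and 19.0 and 8.59 at P4, so its log2 differences of -0.97 and -1.06 were close to each other. For Bbs7 the fractions overlapped within their intervals at P1, with 8.14 and 8.51 FPKM, and were apart at P4, with 22.6 and 10.03 FPKM and a difference of -1.10. Bbs1, whose product contacts the GTPase Arl6, had 9.72 and 6.85 FPKM at P1 and 18.3 and 7.26 at P4, a difference of -0.45 and then -1.22. Within a library the highest subunit exceeded the lowest by 2.00 to 2.56 times, whereas this ratio was 3.78 to 7.26 among the IFT-B subunits. The sets differ in size, 7 and 10 genes, and the highest IFT-B subunit was Ift20 or Ift27, whose FPKM lie above their own intervals.

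The BBSome is assembled with the help of chaperonin-like proteins, and their genes were not both lower in pHes1_EPCs. Bbs10 had 2.97 and 4.16 FPKM in the pHes1_ENCs and pHes1_EPCs of P1 and 4.47 and 5.24 at P4, differences of 0.38 and 0.19. Bbs12 had 6.90 and 8.25 FPKM at P1 and 16.1 and 8.68 at P4, differences of 0.23 and -0.82. Both were therefore under 2-fold at both ages, with Bbs12 highest in P4 pHes1_ENCs. Mkks, the third chaperonin-like gene and not a member of the set, had 7.41, 6.63, 10.9 and 10.9 FPKM in P1 pHes1_ENCs, P1 pHes1_EPCs, P4 pHes1_ENCs and P4 pHes1_EPCs. Lztfl1, whose product restrains entry of the BBSome into cilia, had 8.70, 6.86, 16.2 and 9.52 FPKM, differences of -0.30 and -0.71.

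Among the small GTPases, Arl6 (BBS3) brings the BBSome to membranes. Its FPKM was 24.4, 15.8, 97.2 and 35.5 in the order P1 pHes1_ENCs, P1 pHes1_EPCs, P4 pHes1_ENCs and P4 pHes1_EPCs. On the log2 scale the fractions differed by -0.59 at P1 and by -1.43 at P4, with a P4 ratio of 0.366 (range 0.324 to 0.421), and the P4 pHes1_ENC value was the highest of any member. Arl13b, a GTPase of the ciliary membrane that activates Arl3, had 7.82, 6.44, 17.6 and 7.42 FPKM, differences of -0.25 and -1.14. Arl3, which releases lipid-modified cargo inside the cilium, had the opposite sign at P4. It measured 37.7 and 38.6 FPKM at P1 and 50.6 and 76.3 at P4, a difference of 0.03 and then 0.58, with a P4 ratio of 1.51 (range 1.25 to 1.79).

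The IFT-B subunits showed no shared direction. None of the 10 was over 2-fold apart in either direction at either age. Of all genes 10.3% were over 2-fold higher and 11.5% over 2-fold lower at P1, and 16.6% and 9.15% at P4. Their log2 differences ran from -0.45 to 0.84 at P1, with a median of 0.13, and from -0.49 to 0.69 at P4, with a median of 0.10. The sign of the P4 median depended on the scaling, since it was -0.16 with FPKM rescaled to the same total, -0.08 with median-of-ratios scaling and -0.03 after quantile normalization. The 3 scalings lowered the median P4 difference of all genes by 0.17 to 0.24, and over 2-fold higher and lower genes then made up 11.8% to 13.1% and 11.6% to 12.9% of all genes.

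Ift27, Ift57 and Ift74 were higher in pHes1_EPCs at both ages with intervals apart. Ift27 is a small GTPase-like subunit linked to export of the BBSome, and Ift57 is a peripheral subunit. Ift27 had 14.1 and 26.1 FPKM in the pHes1_ENCs and pHes1_EPCs of P1 and 17.1 and 24.6 at P4, differences of 0.84 and 0.50. Ift57 had 4.93 and 7.57 FPKM at P1 and 7.41 and 12.6 at P4, differences of 0.53 and 0.69. Ift74 and Ift81, which form the tubulin-binding module of the particle, did not go together. Ift74 had 15.9 and 24.0 FPKM at P1 and 18.7 and 24.6 at P4, whereas Ift81 had 13.4 in both fractions at P1 and 22.4 and 15.7 at P4. Ift20, which also works at the Golgi apparatus, was the most abundant of the 10 in 3 of the 4 libraries, at 30.2, 21.9, 49.98 and 46.2 FPKM in the order used above.

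The remaining IFT-B subunits lay between 6.37 and 21.7 FPKM. Ift46 had 12.5 and 9.61 FPKM at P1 and 12.3 and 17.2 at P4, so that pHes1_EPCs were the lower fraction at P1 and the higher one at P4. Ift80 had 9.84 and 16.3 FPKM at P1 and 14.5 and 13.0 at P4, a difference of 0.68 and then -0.14. Differences of Ift52, Ift88 and Ift172 were between -0.47 and 0.27 at both ages. The levels of Ift88, the subunit altered in the classical mouse model of polycystic kidney disease, were 7.23, 6.90, 9.24 and 6.37 FPKM.

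The set holds 2 subunits of IFT-A, the part of the train for the way back, and both were under 2-fold at both ages. Ift122 had 10.2 and 10.3 FPKM at P1 and 19.9 and 11.4 at P4, a difference of 0.02 and then -0.76, and its intervals were apart at P4. Ift140 had 7.13 and 8.51 FPKM at P1 and 8.001 and 6.84 at P4, differences of 0.23, with intervals apart, and -0.20, with overlapping intervals. The line 1700019E19Rik had 19.1, 19.2, 32.5 and 32.8 FPKM and differences of 0.01 at both ages. Wdr19, an IFT-A subunit outside the set, had 4.67 and 4.63 FPKM at P1 and 8.10 and 4.12 at P4.

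The motor genes were split. Kif3a and Kif3b encode the partners of the kinesin that drives IFT outwards. Kif3a had 20.9 and 30.0 FPKM in the pHes1_ENCs and pHes1_EPCs of P1 and 16.2 and 21.1 at P4, differences of 0.50 and 0.36. Kif3b had 11.5 and 7.69 FPKM at P1 and 18.0 and 8.87 at P4, differences of -0.52 and -0.94. The intervals of both were apart at both ages, in opposite directions. Kif3b passed 2-fold at P4 as a plain ratio, 0.494 (range 0.438 to 0.567), and not on the log2(FPKM + 1) scale. Kifap3, the adaptor of the same motor and not a member, had 27.9, 15.5, 26.8 and 20.0 FPKM. Dync2h1, the heavy chain of the dynein that drives the way back, had 4.18, 4.75, 3.99 and 2.38 FPKM, a difference of 0.15 and then -0.56.

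In the transition zone, Cep290 and Nphp4 had the largest differences at P4. Cep290, which links microtubules to the membrane in the connecting cilium, had 13.0 and 4.92 FPKM in the pHes1_ENCs and pHes1_EPCs of P1 and 31.3 and 4.63 at P4. On the log2 scale it differed by -1.24 at P1 and by -2.52 at P4, the largest of any member. At P4 the pHes1_ENC level was 6.76 times that of pHes1_EPCs, a ratio of 0.148 (range 0.131 to 0.163). The gene lies at 99950923 to 100036289 on the plus strand of chromosome 10 in NCBI37/mm9. A line on the other strand, 4930430F08Rik, shares 1382 bases with it and had 6.28, 5.43, 8.22 and 9.98 FPKM. The library kit does not mark the strand, so reads of the shared bases cannot be assigned to either gene.

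Nphp4, a scaffold of the transition zone, had 5.95 and 3.21 FPKM at P1 and 14.2 and 2.93 at P4, differences of -0.72 and -1.96. Its P4 ratio was 0.206 (range 0.173 to 0.248), and it lies at 151852251 to 151937293 on the plus strand of chromosome 4. Ahi1, the gene of a form of Joubert syndrome, had 23.2 and 13.7 FPKM at P1 and 34.1 and 23.2 at P4, differences of -0.72 and -0.54. Iqcb1 (NPHP5), whose product binds Cep290, had 13.8 and 12.4 FPKM at P1 and 15.9 and 13.0 at P4. The intervals of its fractions overlapped at P1.

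Mks1, Rpgrip1l and Tmem67, genes of Meckel and Joubert syndromes, had differences above 0 at P1, of 0.16, 0.29 and 0.13, and below 0 at P4, of -0.33, -0.33 and -0.41. Their FPKM ran from 3.37, for Rpgrip1l in P4 pHes1_EPCs, to 10.6, for Mks1 in P4 pHes1_ENCs. At P4 all 7 transition zone genes were lower in pHes1_EPCs with intervals apart, and 2 of 7 were over 2-fold lower, beside 29.2% and 9.15% of all genes.

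**Figure D3:**
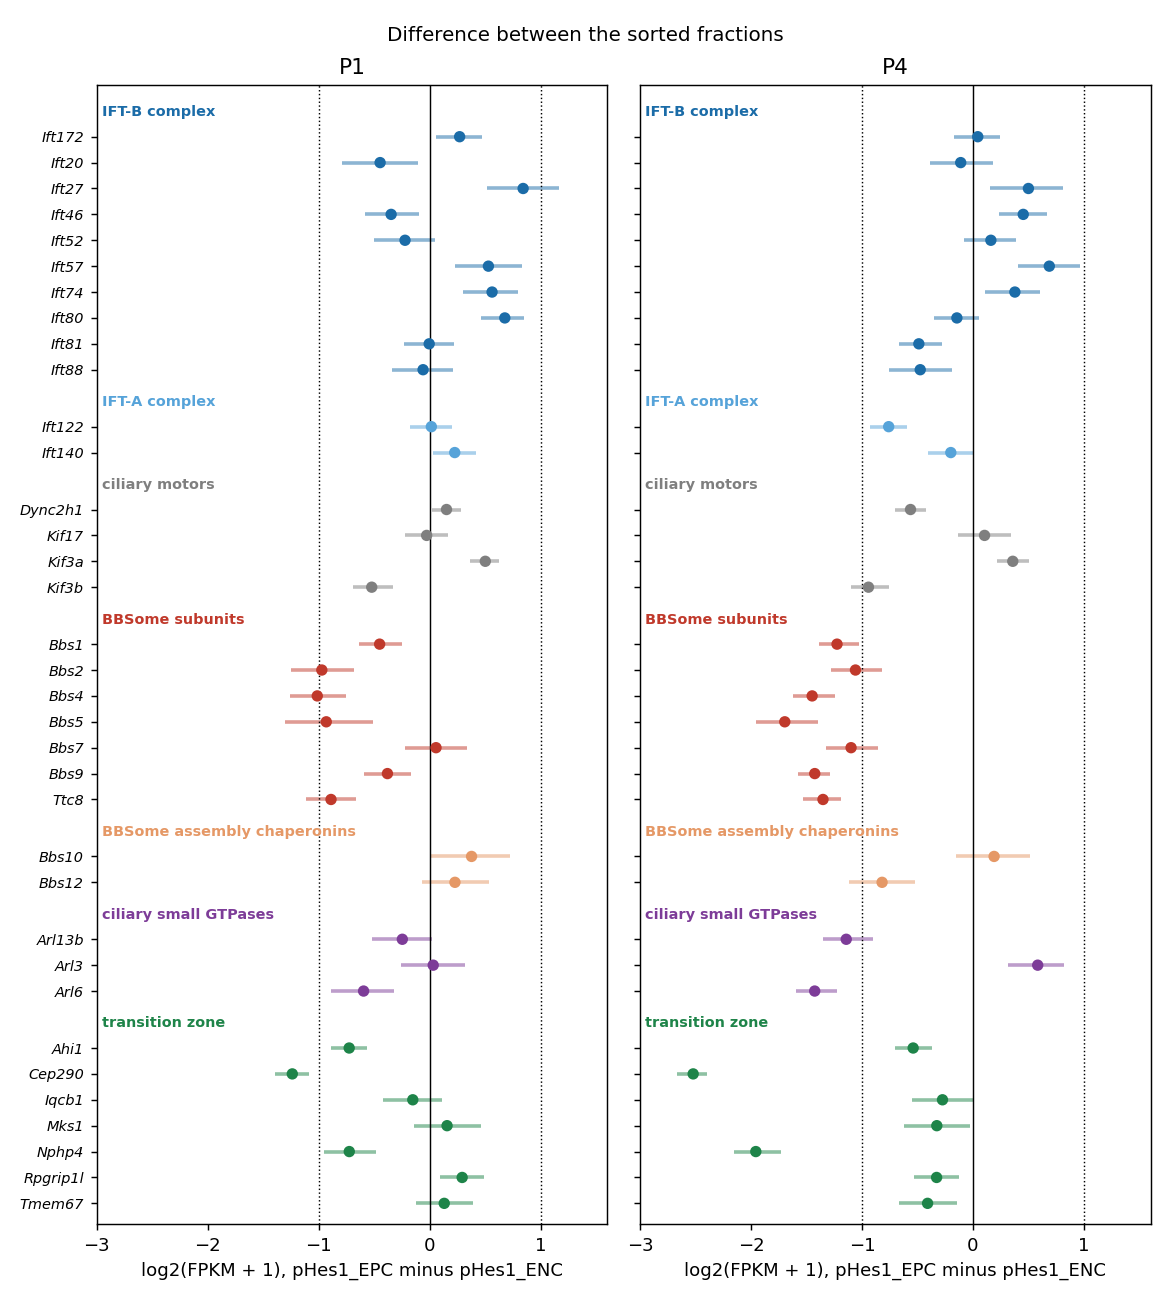
Difference of log2(FPKM + 1), pHes1_EPC less pHes1_ENC, for each member at P1 (left) and P4 (right), coloured by role. Bars run between the extremes that the 95% Cufflinks intervals of both libraries allow, and dotted lines mark 2-fold. All 7 BBSome subunits, Arl6, Arl13b, Cep290 and Nphp4 are beyond the lower line at P4, and the 10 IFT-B subunits stay between the lines at both ages.

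Counted over the 34 members past the filter, 0 were over 2-fold higher and 2 over 2-fold lower in pHes1_EPCs at P1, namely Bbs4 and Cep290, beside 10.3% and 11.5% of all genes. At P4 the counts were 0 and 11, beside 16.6% and 9.15%, the 9 added genes being Bbs1, Bbs2, Bbs5, Bbs7, Bbs9, Ttc8, Arl6, Arl13b and Nphp4. The median member difference was -0.03 at P1 and -0.48 at P4. Intervals were apart for 23 members at P1, 10 of them higher and 13 lower, and for 28 at P4, 6 higher and 22 lower. Of all genes 67.6% had intervals apart at P1 and 73.4% at P4, with 34.9% and 44.3% higher and 32.7% and 29.2% lower in pHes1_EPCs. The difference was lower at P4 than at P1 for 28 of the 34 members, beside 36.96% of all genes.

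The change with age uses the same 4 libraries and is not independent of the values above. In pHes1_ENCs, 10 members were over 2-fold higher at P4 than at P1 and 0 over 2-fold lower, beside 4.67% and 10% of all genes, and the median change was 0.53 on the log2 scale against -0.01 for all genes. In pHes1_EPCs, 2 members, Arl6 and Ift20, were over 2-fold higher and 0 lower, beside 7.04% and 4.33% of all genes, with a median of 0.15 against 0.17. Intervals of the ages were apart for 24 members higher and 1 lower at P4 in pHes1_ENCs, where this held for 58.9% of all genes, 27.4% higher and 31.5% lower. In pHes1_EPCs they were apart for 12 members higher and 5 lower, beside 66.2% of all genes, 43.3% higher and 22.9% lower. The BBSome subunits had median changes of 1.30 in pHes1_ENCs, where 5 of 7 were over 2-fold higher, and 0.82 in pHes1_EPCs, where 0 of 7 were. The pHes1_EPC count was 2 of 7 with a pseudocount of 0.1 or as a plain ratio, beside 10.9% and 11.7% of all genes. At 1.5-fold the counts were 7 of 7 and 5 of 7, beside 11.6% and 21.3%. Bbs9 had the largest change of any member in pHes1_ENCs, 2.03, beside 0.98 in pHes1_EPCs. Cep290 and Nphp4 had changes of 1.21 and 1.13 in pHes1_ENCs and of -0.07 and -0.10 in pHes1_EPCs.

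**Figure D4:**
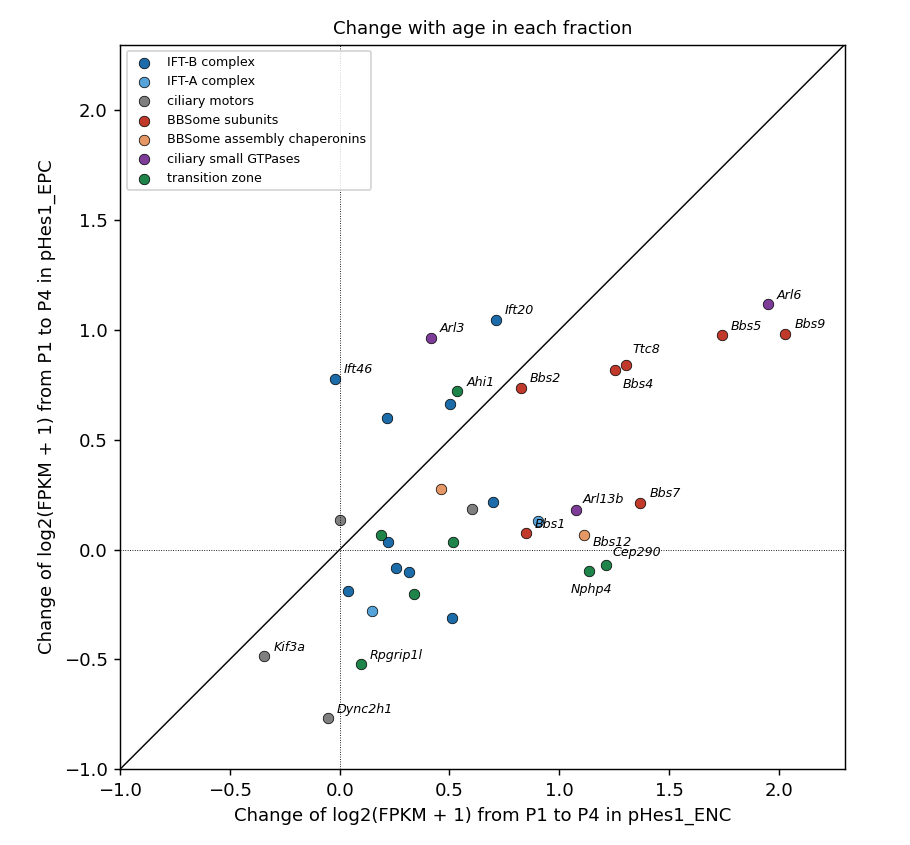
Change of log2(FPKM + 1) from P1 to P4 in pHes1_ENCs (horizontal axis) and in pHes1_EPCs (vertical axis), 1 point per member, coloured by role. The diagonal marks equal change. The 7 BBSome subunits lie below the diagonal, as do 28 of the members in all, and Cep290 and Nphp4 lie near 0 on the vertical axis.

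A ratio within a library does not depend on the scaling between libraries. The summed FPKM of the 7 BBSome subunits was 85.5 in P1 pHes1_ENCs, 50.7 in P1 pHes1_EPCs, 233 in P4 pHes1_ENCs and 86.2 in P4 pHes1_EPCs. That of the 10 IFT-B subunits was 132, 149, 179 and 190. The BBSome sum was therefore 0.647, 0.340, 1.31 and 0.454 times the IFT-B sum. In each age the ratio was lower in pHes1_EPCs, and P4 pHes1_ENCs were the only library in which the BBSome sum exceeded that of IFT-B. Both sums cover only genes of the set, so this comparison holds for the members alone. Bbip1 was not counted, nor was a list of 12 other IFT genes, made of IFT-B and IFT-A subunits and the IFT-A adaptor Tulp3. Those 12 summed to 103, 144, 144 and 185 FPKM in the same order of libraries, of which Tulp3 alone gave 16.4, 42.8, 11.4 and 51.2.

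Marker genes of retinal cell types were set beside these values. Of 5 Notch target genes, Hes1 among them, 5 were higher in pHes1_EPCs at both ages, with medians of 2.15 and 3.75. The Müller glia markers had medians of 1.62 and 3.37, with 11 and 12 of 12 above 0. Among them Cryab reached 1 FPKM only in P4 pHes1_EPCs, so the filter favoured its place above 0 at P4. The Müller glia markers summed to 547, 1686, 380 and 3179 FPKM in the order of libraries used above. Those of retinal progenitors had medians of 1.99 and 3.19, with 6 of 8 over 2-fold higher in pHes1_EPCs at both ages, and summed to 677, 2427, 432 and 1466 FPKM. Of 13 rod markers, 13 were lower in pHes1_EPCs at both ages, with medians of -3.01 and -2.35, and they summed to 1025, 179.5, 6919 and 1482 FPKM. No rod marker was listed at 0 in a pHes1_EPC library, and 4 of 13 were below 1 FPKM in P1 pHes1_EPCs. From P1 to P4 the rod markers had a median change of 3.01 in pHes1_ENCs, with a range of 1.45 to 3.56. In pHes1_EPCs their median change was 4.03, with a range of 0.78 to 4.36. Which fraction changed more differed between single rod markers.

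Other markers moved as well. The S phase genes were higher in pHes1_EPCs, 14 of 14 at both ages, with medians of 2.31 and 2.18, and summed to 321, 1455, 140.5 and 581 FPKM. The G2/M genes had medians of 1.75 and 3.38. Cone markers had medians of -2.14 and -1.51, with 8 of 8 lower. Amacrine and horizontal cell markers had medians of -2.88 and -1.23 over 5 genes, of which Pax6 was higher in pHes1_EPCs at P4, by 2.12. Ganglion cell markers had medians of -0.65 and -0.17 over 6 genes, which ran from -0.61 to 0.60 at P4. Bipolar cell markers had medians of -0.53 and -0.52 over 4 genes. These ran from -3.58 to 0.64 at P1 and from -1.51 to 1.49 at P4. Those of microglia had medians of 1.19 and 0.37 over 5 genes past the filter, and their highest value was 3.72 FPKM. Those of vessels had medians of 0.68 and 1.22 over 3 genes, which ran from -1.95 to 2.13 at P1. The microglia genes Cx3cr1 and Csf1r and the vessel gene Pdgfrb reached 1 FPKM only in pHes1_EPCs, so the filter itself favoured that direction. The red cell genes, with medians of -4.63 and -4.05, summed to 214 and 514 FPKM in pHes1_ENCs at P1 and P4 and to 0.857 and 8.69 FPKM in pHes1_EPCs. Pigment epithelium genes summed to 84.1 FPKM in P4 pHes1_EPCs and to at most 7.47 FPKM in the other libraries. The part of rods, dividing cells or any other cell type in the BBSome and transition zone differences was not tested. In such bulk libraries fewer cells of a type and less RNA per cell cannot be told apart.

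Other genes of the cilium were set beside the members in 10 lists, of which 105 genes were found and 97 passed the filter. In pHes1_EPCs 10 of these 97 were over 2-fold higher and 12 over 2-fold lower at P1, beside 10.3% and 11.5% of all genes. At P4 12 and 14 were so, beside 16.6% and 9.15% of all genes. Genes of the photoreceptor connecting cilium and axoneme were 8 of the 12 lower ones at P1 and 9 of the 14 at P4, with medians of -1.82 and -2.55. Rpgrip1, which anchors RPGR in the connecting cilium, had 57.1, 2.76, 162.6 and 18.0 FPKM in P1 pHes1_ENCs, P1 pHes1_EPCs, P4 pHes1_ENCs and P4 pHes1_EPCs. Rp1, a microtubule protein of the photoreceptor axoneme, had 21.0, 1.27, 182 and 21.1 FPKM, and its paralog Rp1l1 6.56, 0.663, 39.2 and 4.69. Tulp1, Cdhr1 and Mak, also photoreceptor genes, differed by -3.34, -3.54 and -3.54 at P1 and by -2.48, -2.63 and -2.78 at P4. These differences were larger in size at both ages than that of any BBSome subunit.

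In the other direction, Tulp3, an adaptor that loads membrane receptors on IFT-A, had 16.4 and 42.8 FPKM at P1 and 11.4 and 51.2 at P4, differences of 1.33 and 2.08. The cilium disassembly list had medians of 1.44 and 1.40, with 6 and 4 of 8 over 2-fold higher. Its mitotic kinases Aurka, Nek2 and Plk1 and the kinesin Kif2c differed by 1.40, 1.48, 1.74 and 1.52 at P1 and by 1.86, 2.63, 2.84 and 2.86 at P4. The list of other IFT genes, which includes Tulp3, had medians of 0.23 and -0.14. The other genes linked to the BBSome had medians of -0.02 and 0.20, and no gene of that list passed 2-fold. Traf3ip1 (IFT54), an IFT-B subunit, had differences of 0.31 and 0.14, and Rfx3, a factor that binds the X-box, of -0.07 and -0.15.

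**Figure D5:**
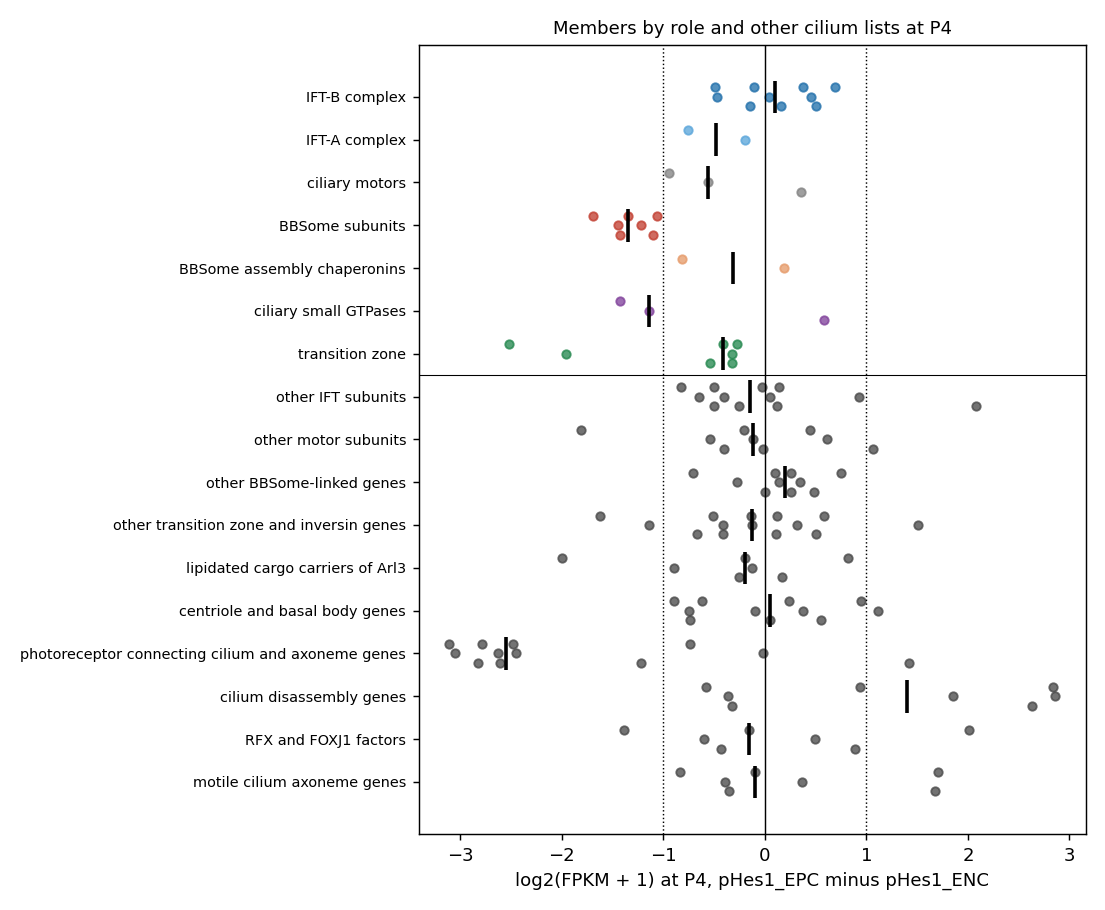
Difference of log2(FPKM + 1) at P4, pHes1_EPC less pHes1_ENC, for members by role (above the line, coloured) and for the other cilium lists (below, grey), genes past the filter only. Each point is a gene, black ticks are medians and dotted lines mark 2-fold. The median is -1.35 for BBSome subunits, 0.10 for IFT-B, -2.55 for the connecting cilium list and 1.40 for the disassembly list.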

How the data were processed

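RNA from pHes1_ENCs and pHes1_EPCs at P1 and P4 was sequenced as single-end reads of 36 bases, 1 library per group. Per the submitters' processing notes and the study's methods, the authors aligned to NCBI37/mm9 with TopHat 2.0.8b, which could place a read at 50 positions at most, and deposited gene FPKM from Cufflinks 2.1.1 with a 95% interval and a status. Read counts were not given, so the depth is unknown.

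Tables were joined by gene and locus. Small RNA symbols (728) were left out, and of 234 symbols with several lines the most abundant line was used, which gave 21830 genes. All 35 members have a single line with status OK. Calculations used Python 3.11.15, numpy 2.4.6 and pandas 2.3.3, and figures matplotlib 3.10.9. A pseudocount of 1, an FPKM minimum of 1 and a threshold of 2-fold were used. The procedure was tested on simulated data. With 1 library per group no test was run. Promoters came from RefSeq (GRCm38.p6), and no promoter was printed or searched for Ift122, Ift80, Ift81 and Tmem67.

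The members, roles, other lists and markers were chosen with earlier results of these data known. All members are named, as are direct partners and, in each direction, up to 6 genes of the other cilium lists ranked by the smaller of their P1 and P4 differences, if over 2-fold at both ages and at 10 FPKM or more in a library. Alternatives were other pseudocounts, filters, scalings, line rules and thresholds. Using the midpoint of the interval in place of the FPKM was added after the data had been seen.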

Additional observations from a re-analysis of the deposited data

Results flagged for a closer look

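For 3 members the Cufflinks intervals of the fractions were apart at both ages but in opposite directions. On the log2 scale pHes1_EPCs less pHes1_ENCs gave -0.35 and then 0.45 for Ift46 at P1 and P4, 0.15 and -0.56 for Dync2h1, and 0.29 and -0.33 for Rpgrip1l. Each group is 1 library, so the difference between ages was not tested. All of these values are under 2-fold.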

How the results depend on the processing

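The count of 11 members over 2-fold lower in pHes1_EPCs at P4 ran from 11 to 14 under all alternatives. The share of all genes ran from 5.42% with no filter to 17.2% at 1.5-fold. All 7 BBSome subunits were over 2-fold lower in each, with medians of -1.63 to -1.35. Of 612 recomputed single differences, 49 moved beyond the range of their intervals, and 0 of those past 2-fold changed sign. At P1 a threshold of 1.5-fold gave 8 members lower and 2 higher in pHes1_EPCs (2 and 0 at 2-fold). Of all genes 19.4% were then lower and 19.4% higher. It gave 1 member higher at P4 (0), beside 29.4% of all genes, and 16 higher with age in pHes1_ENCs (10), beside 11.6%. With age in pHes1_EPCs it gave 12 higher and 1 lower (2 and 0), beside 21.3% and 10.7%. A pseudocount of 0.1, or a plain ratio, gave 4 members lower at P1 and 4 higher with age in pHes1_EPCs. Under these settings 15.0% and 15.3% of all genes were lower at P1, and 10.9% and 11.7% were higher with age in pHes1_EPCs. Rescaling to the same total gave 4 lower at P1, beside 12.6% of all genes. With age in pHes1_EPCs it gave 0 higher and 1 lower, beside 3.58% and 7.65%. It moved the median difference at P4 from -0.48 to -0.74 and the median change in pHes1_EPCs from 0.15 to -0.15. Median-of-ratios scaling and quantile normalization each gave 0 higher with age in pHes1_EPCs, beside 4.74% and 4.57% of all genes. The 3 scalings lowered the median change of all genes in pHes1_EPCs by 0.15 to 0.28, and rescaling to the same total lowered that in pHes1_ENCs by 0.12. No paired analysis was possible because each group is a single library. Without replicates, variation between animals, sorts and libraries is not measured, and the intervals cover counting error only.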
